A study of Homo sapiens with 6 samples.

Results

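The 10 genes of the Eph family described here were followed in PC-3 cells made resistant to an AKT inhibitor: the receptors EPHA1, EPHA2, EPHA4, EPHB2, EPHB3, EPHB4 and EPHB6, and the ephrin ligands EFNA1, EFNA4 and EFNB1. They are 10 of 27734 gene rows in the deposited tables and were picked by symbol with their values in these same libraries already known, so that their differences between the groups are given as descriptions and carry no p-value. PC-3 is an established human prostate cancer cell line. The resistant cells (PC-3-GDC-R) were kept under continuous GDC-0068 (ipatasertib, an inhibitor of the AKT kinases), and the control cells (PC-3-control) were carried alongside with the DMSO vehicle. RNA from cells at passages 20 to 30 gave 3 libraries for each group. Nothing in the labels tells separate cultures from repeated preparations, so p-values measure only the spread between these libraries, which may be technical. Neither the GDC-0068 dose nor whether drug was on the cells at collection is stated.

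Eph receptors are the largest family of receptor tyrosine kinases. Their ephrin ligands stay attached to the neighbouring cell, by a lipid anchor in the A class and by a membrane-spanning segment in the B class, so that contact between cells can signal into both of them. Receptors of each class mainly bind ephrins of the same class, with EPHA4 able to bind both. EPHA2 is abundant in many carcinoma lines, where AKT can phosphorylate it in the absence of ligand, and EFNB2 is the main ligand of EPHB4.

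The 6 libraries held 35562400 to 44279078 fragments over all gene rows. Pearson's r of log2 CPM values across 13070 genes was 0.9955 to 0.9962 between resistant libraries, and 0.9902 to 0.9958 between control libraries. Control replicate 1 differed from both other controls by base composition, with a Spearman's rho of -0.734 between its deviation from the group mean and transcript GC content, across 12503 genes, which are not independent replicates. It was the lowest control library for 9 of the 10 Eph genes, of which 9 have a transcript GC content above the median of tested genes, 49.8%. Each difference below is therefore followed, where it matters, by its value without that library. The 5 epithelial markers (EPCAM, KRT8, KRT18, CDH1 and KRT19) summed to 1273 to 1342 FPKM in resistant and 1360 to 1536 FPKM in control libraries. Among them, CDH1 was at 32.9 to 34.7 FPKM in resistant and 63.8 to 66.2 FPKM in control libraries, and KRT18 at 420.3 to 441.1 FPKM in resistant and 375.1 to 415.4 FPKM in control libraries. Of the markers of luminal prostate epithelium, KLK3 and KLK2 were listed at 0 in all 6 libraries, while TMPRSS2 was at 4.39 to 5.50 FPKM. No leukocyte marker reached 1 FPKM. The 4 fibroblast markers summed to 1.70 to 1.96 FPKM in resistant and 2.53 to 3.23 FPKM in control libraries, most of it COL1A1. LUM leaned the other way, at 0.344 to 0.463 FPKM in resistant and 0.269 to 0.344 FPKM in control libraries. COL1A2 and DCN were at 0.0210 FPKM or less. The part of these markers in the differences below was not tested.

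Stretches before a RefSeq transcript start of 4 of these genes are shown because they belong to the 3 genes with the largest decreases and to the most abundant receptor. Each runs 5′ to 3′ over the 250 bases before the RefSeq transcript start (GRCh38.p14), at chr7:142862506-142862755 on the plus strand for EPHB6, chr3:184561535-184561784 on the plus strand for EPHB3, chrX:68828771-68829020 on the plus strand for EFNB1 and chr1:16156070-16156319 on the minus strand for EPHA2. Capitals mark GGGCGG, the GC box, on either strand and, in EPHA2 only, GGAATG on either strand.
EPHB6: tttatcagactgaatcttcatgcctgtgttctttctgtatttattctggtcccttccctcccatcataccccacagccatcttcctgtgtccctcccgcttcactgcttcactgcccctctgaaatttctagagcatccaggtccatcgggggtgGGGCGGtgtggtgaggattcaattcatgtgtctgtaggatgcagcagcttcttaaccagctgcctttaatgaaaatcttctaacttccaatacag
EPHB3: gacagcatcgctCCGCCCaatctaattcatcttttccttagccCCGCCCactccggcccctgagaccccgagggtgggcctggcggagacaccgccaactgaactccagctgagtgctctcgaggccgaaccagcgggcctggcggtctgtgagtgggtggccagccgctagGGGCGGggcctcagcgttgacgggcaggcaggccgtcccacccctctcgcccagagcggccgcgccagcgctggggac
EFNB1: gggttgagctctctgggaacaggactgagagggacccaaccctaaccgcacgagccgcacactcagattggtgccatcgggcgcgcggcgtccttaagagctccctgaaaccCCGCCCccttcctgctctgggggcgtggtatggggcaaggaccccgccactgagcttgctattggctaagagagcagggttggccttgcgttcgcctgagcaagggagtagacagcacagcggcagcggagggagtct
EPHA2: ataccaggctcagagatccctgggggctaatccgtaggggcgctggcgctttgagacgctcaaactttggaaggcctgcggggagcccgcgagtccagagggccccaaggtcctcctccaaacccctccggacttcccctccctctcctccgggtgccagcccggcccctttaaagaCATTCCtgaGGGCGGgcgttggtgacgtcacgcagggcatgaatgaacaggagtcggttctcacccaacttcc
All 10 genes have at least 1 GC box in this window, against 42.3% of 27305 promoters of RefSeq genes, which include genes that PC-3 cells do not express. Over all promoters the medians are 58% G and C and 11 CpG dinucleotides, below those of the 10 genes (63.4% and 17). The part of base composition in the GC box matches was not tested. The window of EPHB6 holds 3 CpG dinucleotides and is 48.0% G and C, against a median of 17 CpG and 63.4% over the 10 genes. That window is placed by 1 RefSeq transcript and may lie inside the EPHB6 gene model counted here, which was not checked. Its composition may therefore not be that of the promoter in use. Also searched on both strands were TGANTCA (the AP-1 motif), GTAAACA (a forkhead motif) and CCGGAAG (an ETS motif). These are in 0 of the 10 windows, and in 6.60% (TGANTCA), 2.98% (GTAAACA) and 8.82% (CCGGAAG) of all promoters. GGAATG, the TEAD motif, was in 1 of the 10 windows, against 11.9% of all promoters. These are matches of letters and do not show that a factor binds.

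In resistant cells the B-class genes EPHB3, EPHB4, EPHB6 and EFNB1 and the receptor EPHA1 were lower, while EPHA2, EPHA4 and EFNA1 were higher, and EPHB2 and EFNA4 differed by less than their spread. Differences of all 13070 genes that had a symbol of their own and averaged at least 1 FPKM over the 6 libraries were fitted with edgeR's quasi-likelihood test, with Benjamini-Hochberg adjustment over all of them and a threshold of 0.05. Of the 10 Eph genes, 8 passed, 3 higher and 5 lower. Over all tested genes, 50.2% passed, 24.5% higher and 25.7% lower. The genes were chosen from this contrast, so nothing is read from these counts. Their median log2 fold change was -0.26, with a median of -0.01 over all tested genes. Only EPHB6 among them passed with at least a 2-fold difference, as 3.41% of tested genes did. The FPKM ranges of the groups did not overlap for 8 of the 10, against 60.5% of tested genes.

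**Figure D1:**
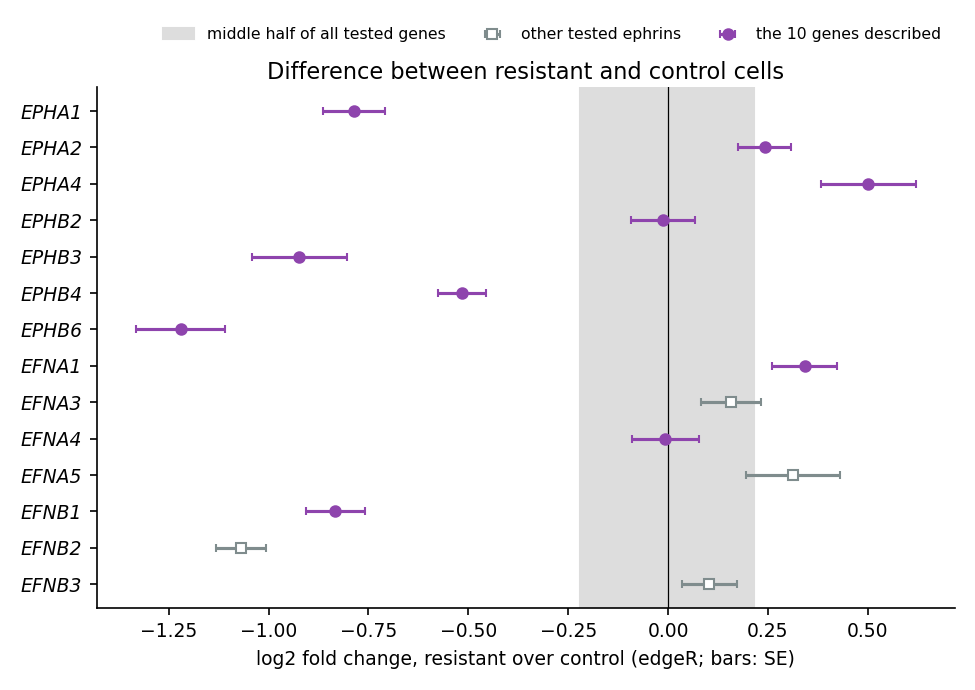
Log2 fold change of each tested Eph or ephrin gene (horizontal axis, resistant over control, edgeR), with bars for its standard error, filled circles for the 10 genes described and open squares for the other 4 tested ephrins; the grey band is the interquartile range of all 13070 tested genes, -0.22 to 0.22. EPHB6, EFNB2, EPHB3, EFNB1, EPHA1 and EPHB4 lie left of the band, and EPHA4, EFNA1, EFNA5 and EPHA2 right of it.

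EPHA2 was by far the most abundant Eph gene and was higher in resistant cells. It is a receptor of A-class ephrins and lies on chromosome 1 at 16450832 to 16482604 on the minus strand (hg19, as are all gene positions here, counted from 1). Its level was 187.5, 187.6 and 185.3 FPKM in resistant replicates 1 to 3, against 137.4, 162.1 and 168.1 FPKM in control replicates 1 to 3. Every resistant library was above every control library, with an SD of 1.32 FPKM over the resistant and 16.3 FPKM over the control libraries. The log2 fold change was 0.24 ± 0.07 (SE), which was 0.16 without control replicate 1. EPHA2 no longer passed the threshold without resistant replicate 1, at 0.25.

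EPHA4 was the lowest of the 7 receptors in both groups. It binds ephrins of both classes and is best known from axon guidance, and its gene lies on chromosome 2 at 222282747 to 222438922 on the minus strand. Its level was 1.38, 1.31 and 1.22 FPKM in the resistant libraries, against 0.942, 1.02 and 0.755 FPKM in the control libraries, from 177 to 365 fragments per library. The groups did not overlap, and the log2 fold change was 0.50 ± 0.12. The mean of the control libraries, 0.906 FPKM, is below the filter of 1 FPKM, so EPHA4 was tested only through its level in resistant cells. The difference was 0.28 on the log2(FPKM + 1) scale, which understates changes of low genes, and 0.59 without control replicate 2.

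EPHA1, the third receptor of the A class, was lower. It lies on chromosome 7 at 143088205 to 143105985 on the minus strand. Its level was 7.22, 7.46 and 7.36 FPKM in resistant libraries, against 11.04, 12.9 and 13.6 FPKM in control libraries. The groups were far apart against their spread, with a log2 fold change of -0.79 ± 0.08, and -0.86 without control replicate 1. The antisense gene EPHA1-AS1 overlaps its model by 1080 bases and had 2 to 12 fragments per library, against 818 to 1684 for EPHA1.

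EPHB6 had the largest difference of the 10 genes. Its kinase domain lacks catalytic activity, so it signals through other Eph receptors and adaptors. The gene lies on chromosome 7 at 142552776 to 142568847 on the plus strand. It had 2.01, 2.53 and 2.38 FPKM in resistant libraries, against 4.71, 5.33 and 5.95 FPKM in control libraries. The highest resistant library was below the lowest control library, and the log2 fold change was -1.22 ± 0.11, which is 2.33-fold lower. Without control replicate 1 the EPHB6 log2 fold change was -1.29. EPHB3, which with EPHB2 positions epithelial cells in the intestinal crypt, lies on chromosome 3 at 184279587 to 184300196 on the plus strand. It had 3.09, 2.58 and 3.02 FPKM in resistant libraries, against 4.58, 5.45 and 6.22 FPKM in control libraries. EPHB3 too was lower in every resistant library than in any control library, with a log2 fold change of -0.92 ± 0.12, and -1.03 without control replicate 1.

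EPHB4, the receptor best known from the vein side of blood vessel development, was next to EPHA2 in abundance and lies on chromosome 7 at 100400187 to 100425143 on the minus strand. It had 29.5, 30.3 and 28.1 FPKM in resistant libraries, against 37.6, 42.6 and 43.9 FPKM in control libraries, from 4322 to 7179 fragments per library. The groups did not overlap, and the log2 fold change was -0.52 ± 0.06, and -0.57 without control replicate 1. EPHB2, on chromosome 1 at 23037331 to 23247993 on the plus strand, was the B-class receptor with no difference beyond the spread. It had 3.58, 3.61 and 3.54 FPKM in resistant libraries, all within the range of the control libraries, which held 3.10, 3.68 and 3.90 FPKM. Its log2 fold change was -0.01 ± 0.08, and lay between -0.10 and 0.06 over all 15 alternatives.

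**Figure D2:**
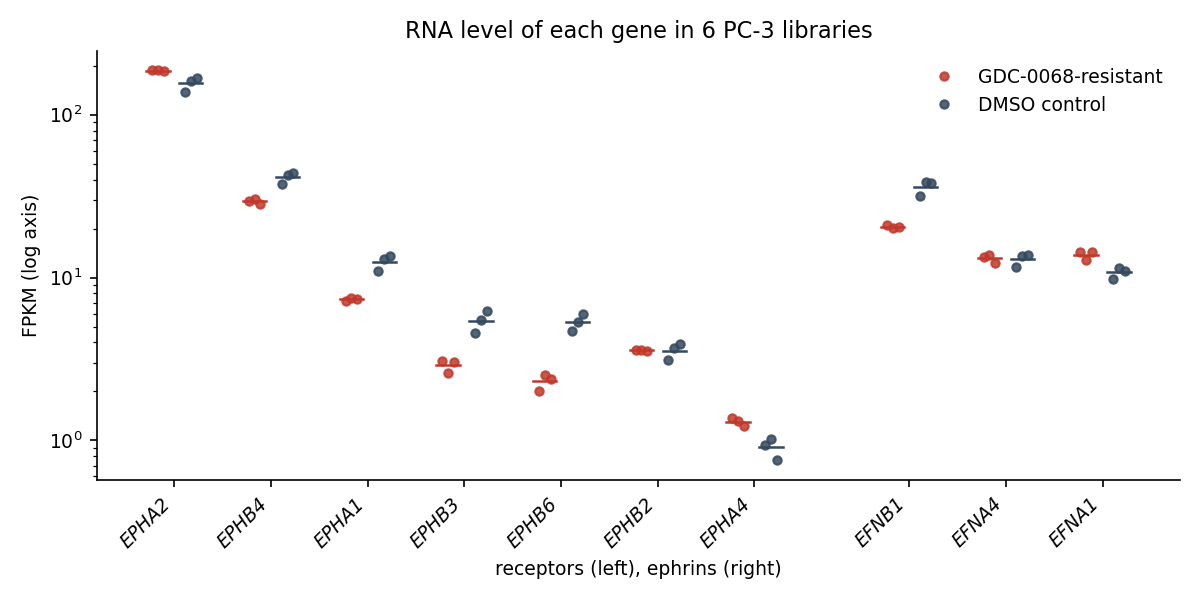
FPKM of each gene (vertical log axis) in each of the 3 resistant (red) and 3 control (dark) libraries, with a line at each group's mean, receptors on the left and ephrins on the right. EPHA2 stands above all others, at 185.3 to 187.6 FPKM in resistant and 137.4 to 168.1 FPKM in control cells, and the groups overlap only for EPHB2 and EFNA4.

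Among the ligands, EFNB1 was lower, EFNA1 higher and EFNA4 not distinguishable between the groups. EFNB1, a transmembrane ephrin that binds B-class receptors, lies on chromosome X at 68048840 to 68062006 on the plus strand. It had 21.1, 20.2 and 20.4 FPKM in resistant libraries, against 31.7, 38.7 and 37.9 FPKM in control libraries. The groups did not overlap, and the log2 fold change was -0.83 ± 0.07, and -0.91 without control replicate 1. EFNA1 is a lipid-anchored ligand of EPHA2. It had 14.3, 12.8 and 14.3 FPKM in resistant libraries, against 9.76, 11.5 and 11.01 FPKM in control libraries. All resistant libraries were above all control libraries, by a log2 fold change of 0.34 ± 0.08, and 0.28 without control replicate 1.

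EFNA4, another lipid-anchored ligand, had 13.3, 13.7 and 12.3 FPKM in resistant libraries, against 11.6, 13.6 and 13.8 FPKM in control libraries. These ranges overlap, and the log2 fold change was -0.01 ± 0.08, with a range of -0.09 to 0.05 over 16 alternatives. EFNA4 (155036213 to 155042029), EFNA3 and EFNA1 (155100349 to 155107386) lie in a row on the plus strand of chromosome 1. The antisense gene DCST1-AS1, with 162 to 308 fragments per library, overlaps EFNA4 by 255 bases, and no source says that fragments were counted by strand, so the 2 cannot be told apart there. The interval listed for SRGAP2D, with 342 to 510 fragments per library, also covers all 3 ephrin genes.

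**Figure D3:**
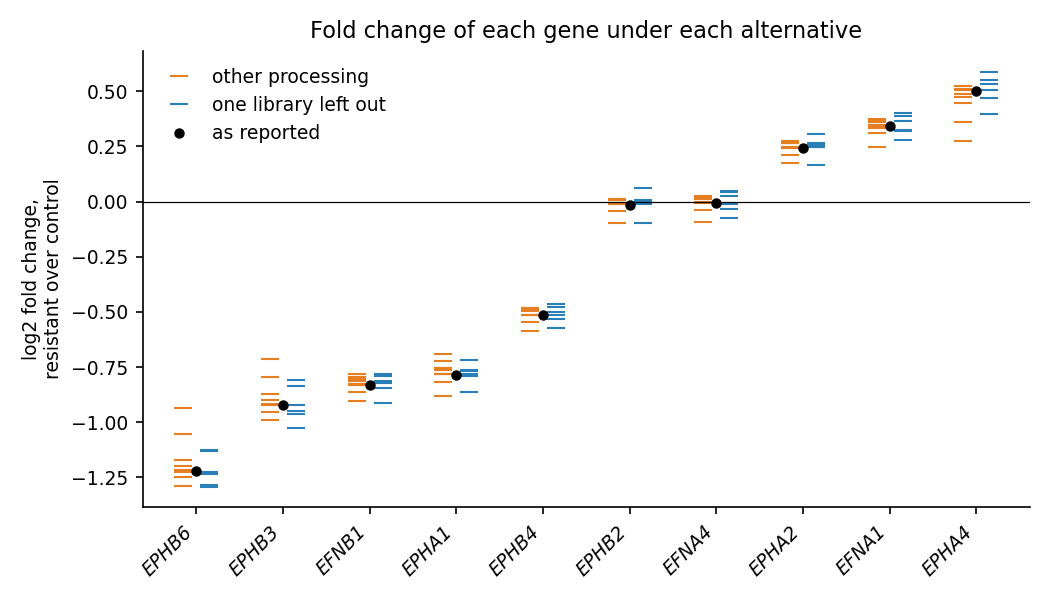
Log2 fold change of each gene (vertical axis, resistant over control), as reported (black), with other processing (orange) and with 1 library left out (blue). EPHB2 and EFNA4 lie on both sides of 0, while the other 8 genes keep their direction, EPHB6 from -1.29 to -0.93 and EPHA2 from 0.16 to 0.31.

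The make-up of the receptor RNA differed between the groups more clearly than its amount. Over the 7 receptors, the summed level was 234.2, 235.4 and 230.9 FPKM in resistant libraries, against 199.4, 233.1 and 242.4 FPKM in control libraries. These ranges overlap, and the mean differed by 3.80%, higher in resistant cells, and by -1.77% without control replicate 1. EPHA2 made up 80.03%, 79.7% and 80.2% of that sum in resistant libraries, against 68.9%, 69.6% and 69.4% in control libraries. The share was 10.7 percentage points higher, with an SD of 0.277 percentage points in resistant and 0.327 in control libraries (n = 3 each). EPHB4 held 12.6 ± 0.359% in resistant and 18.4 ± 0.4% in control libraries, and all B-class receptors together held 16.3 ± 0.272% in resistant and 24.8 ± 0.307% in control libraries. Without EPHA2, the other 6 receptors summed to 46.7 ± 1.09 FPKM in resistant and 69.1 ± 6.36 FPKM in control libraries. The shares of control replicate 1 lay close to those of the other control libraries, although its receptor sum was the lowest of the 6 libraries.

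The ligands shifted in both amount and make-up. EFNA1, EFNA4 and EFNB1 summed to 48.7, 46.7 and 46.98 FPKM in resistant libraries, against 53.05, 63.8 and 62.7 FPKM in control libraries, a difference in means of -20.7%. EFNB1 made up 43.3 ± 0.0966% of the sum in resistant and 60.3 ± 0.542% in control libraries. EFNA1 made up 29.1 ± 1.52% in resistant and 17.97 ± 0.413% in control libraries. EFNB1 was the most abundant ligand in both groups. By FPKM, EFNA1 and EFNA4, whose ranges overlap in resistant cells, follow it there, while in control cells EFNA4 was above EFNA1 in every library. Receptor RNA exceeded ligand RNA 4.92 ± 0.114 times in resistant and 3.76 ± 0.108 times in control libraries. The ratio was 9.08 ± 0.228 in resistant and 6.09 ± 0.182 in control libraries in FPM, which is not divided by length, and 3.56 ± 0.0693 in resistant and 2.79 ± 0.109 in control libraries over the FPKM of all annotated family genes. In FPM, EFNA1 made up 20.3 ± 1.003% of the ligand sum in resistant and 10.99 ± 0.286% in control libraries. EFNA4 made up 15.5 ± 0.953% in resistant and 10.7 ± 0.203% in control libraries in that unit, so its place above EFNA1 in control cells depends on the unit. These sums and shares are over genes chosen from this contrast and carry no test.

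**Figure D4:**
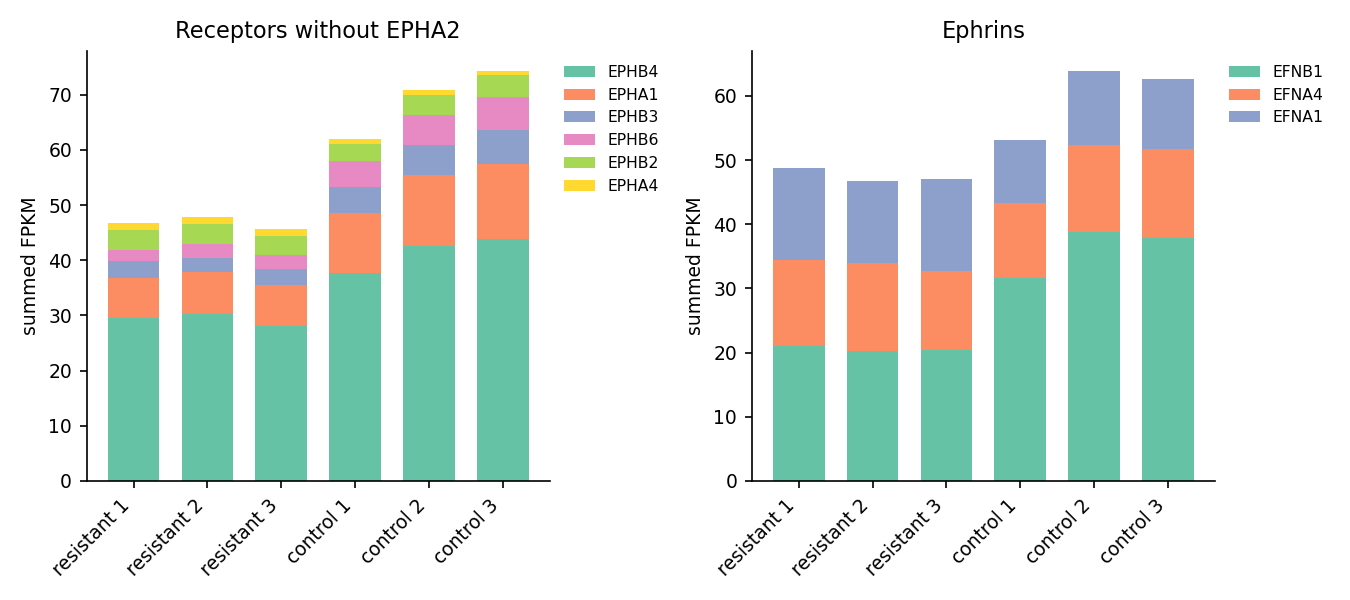
Summed FPKM of the 6 receptors other than EPHA2 (left) and of the 3 ephrins (right) in each library (horizontal axis), stacked by gene. Both stacks are shorter in the 3 resistant libraries, with differences in means of -32.3% for these receptors and -20.7% for the ephrins, and the EPHB4 and EFNB1 blocks differ most in FPKM.

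By FPKM, the order of the receptors was the same at the top of both groups and changed lower down. EPHA2 led, before EPHB4 and then EPHA1, in resistant and in control cells, with no overlap between neighbours in the order. EPHB2 followed in resistant cells, above EPHB3 and EPHB6. In control cells EPHB3 and EPHB6 came before EPHB2, and EPHB3 (5.41 ± 0.822 FPKM) and EPHB6 (5.33 ± 0.621 FPKM) overlapped there. In FPM the order differed below EPHA2 and EPHB4. There EPHB2 held 4.08 ± 0.00711% of the receptor sum in resistant libraries, above EPHA1 at 2.56 ± 0.0458%. In control libraries EPHB2 held 4.21 ± 0.0749%, below EPHA1 at 4.51 ± 0.0278%. It was above EPHB3 (2.44 ± 0.15%) and EPHB6 (2.32 ± 0.0836%) in these control shares. By mean FPKM, EPHA2 was above 96.8% of the 13070 tested genes, EPHB4 above 80.9%, EFNB1 above 76.4% and EPHA4 above 1.45%.

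The 12 other Eph and ephrin genes are the rest of the family, left after the members were picked with these data known. Of them, 4 ephrins passed the filter and EFNB2 fell. EFNB2, the transmembrane ligand of EPHB4, lies on chromosome 13 at 107142079 to 107187388 and had 4.34, 3.93 and 4.002 FPKM in resistant libraries, against 8.44, 8.66 and 8.28 FPKM in control libraries. The resistant libraries lay close together and below all controls, with a log2 fold change of -1.07 ± 0.06 (edgeR quasi-likelihood test, Benjamini-Hochberg adjusted p = 4.85e-06), and between -1.10 and -0.89 over all alternatives. EFNB3, the third B-class ephrin, had 5.12 ± 0.143 FPKM in resistant and 4.70 ± 0.214 FPKM in control cells and did not pass (0.10 ± 0.07, edgeR adjusted p = 0.238). EFNA3 did not pass either (0.16 ± 0.08, edgeR adjusted p = 0.113). EFNA5 (0.31 ± 0.12, edgeR adjusted p = 0.0539) missed the threshold and passed with DESeq2 at 0.32, with library totals at 0.34, with a GC correction at 0.28 and without control replicate 1 at 0.46. A p above the threshold does not show that these 3 genes were alike in both groups. Their FPKM ranges did not overlap, which also held for 60.5% of all tested genes, of which 50.2% passed.

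The other 8, all receptors except EFNA2, were below 1 FPKM and were tested only in the fit without a filter, where 36.3% of 22112 genes passed, 17.3% higher and 19% lower. EPHA5, best known from neurons, had 118, 105 and 137 fragments in resistant libraries, against 368, 340 and 323 in control libraries, and fell by 1.58 on the log2 scale (SE 0.13, edgeR adjusted p = 1.49e-07). EPHA5-AS1 overlaps it by 535 bases on the other strand, with 19 to 24 fragments in resistant and 43 to 61 in control libraries. EPHB1 had 29, 29 and 30 fragments in resistant libraries, against 4, 4 and 3 in control libraries. The difference passed, at 2.89 ± 0.38 on the log2 scale (adjusted p = 2.34e-05 in edgeR), and its level stayed at 0.184 FPKM or less. EPHA10, which like EPHB6 lacks an active kinase, rose by 0.46 ± 0.14 (edgeR adjusted p = 0.0171). EPHA3, EPHA6, EPHA7 and EFNA2 did not pass. EPHA8 had 0 fragments in each resistant library, which allows up to 3 fragments in each, and 0 to 2 in control libraries.

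EPHB4 and EFNB2 also mark blood vessels, so endothelial markers were read beside them. PECAM1, CDH5, KDR and VWF summed to 1.86 to 2.26 FPKM in resistant and 3.56 to 4.10 FPKM in control libraries. Most of each sum was KDR, at 1.56 to 1.79 FPKM in resistant and 2.73 to 2.998 FPKM in control libraries. PECAM1 was also lower in every resistant library than in any control library. CDH5 and VWF were far lower and did not fall with them. CDH5 was at 0.0430 to 0.0576 FPKM in resistant and 0.0126 to 0.0480 FPKM in control libraries, which overlap. VWF was higher, at 0.0162 to 0.0353 FPKM in resistant and 0 to 0.00964 FPKM in control libraries, with 0 in control replicate 2. The part of these markers in the EPHB4 and EFNB2 differences was not tested. In bulk RNA, fewer cells expressing a gene and less RNA per cell cannot be told apart.

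Genes that act with Eph receptors moved in both directions. Of 52 listed genes for kinases, adaptors, exchange factors, phosphatases and PDZ partners, 46 were tested. Of these, 12 rose, 12 fell and 22 did not pass, with a median log2 fold change of -0.08. Of all tested genes, 24.5% rose and 25.7% fell, so these counts are near the background. NGEF (ephexin-1), a guanine nucleotide exchange factor that binds EphA4 in mouse, was the only partner that passed with at least a 2-fold difference. It had 7.11 ± 0.416 FPKM in resistant and 14.9 ± 1.41 FPKM in control cells, a difference of -1.09 ± 0.08 on the log2 scale (edgeR adjusted p = 1.41e-05). The 4 listed SRC-family kinases differed in direction. YES1 fell by 0.46 on the log2 scale, and by 0.30 without control replicate 1, and SRC fell by 0.38. FYN rose by 0.35, and LYN, at -0.03, did not pass. PTPN13, a phosphatase known to act on B-class ephrins, fell by 0.34.

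Of the partners that rose, ABL2, a cytoplasmic tyrosine kinase that remodels the actin skeleton, had 11.8 ± 0.383 FPKM in resistant and 6.02 ± 0.419 FPKM in control cells, 0.95 ± 0.06 on the log2 scale (edgeR adjusted p = 8.06e-06). CHN1 (alpha-chimaerin), a RAC GTPase-activating protein downstream of EphA4 in mouse, rose by 0.70 ± 0.08, AFDN (afadin), a junctional PDZ protein, by 0.59 ± 0.05, and MMP14, a membrane protease known to cut EPHA2, by 0.54 ± 0.05. Leaving out control replicate 1 gave 16 partners that rose and 18 that fell, with 4165 higher and 4298 lower genes in all. Leaving out resistant replicate 1 gave 12 and 7, with 2669 higher and 2445 lower genes. Correcting for GC content gave 16 and 23, with 3437 higher and 4683 lower genes.

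**Figure D5:**
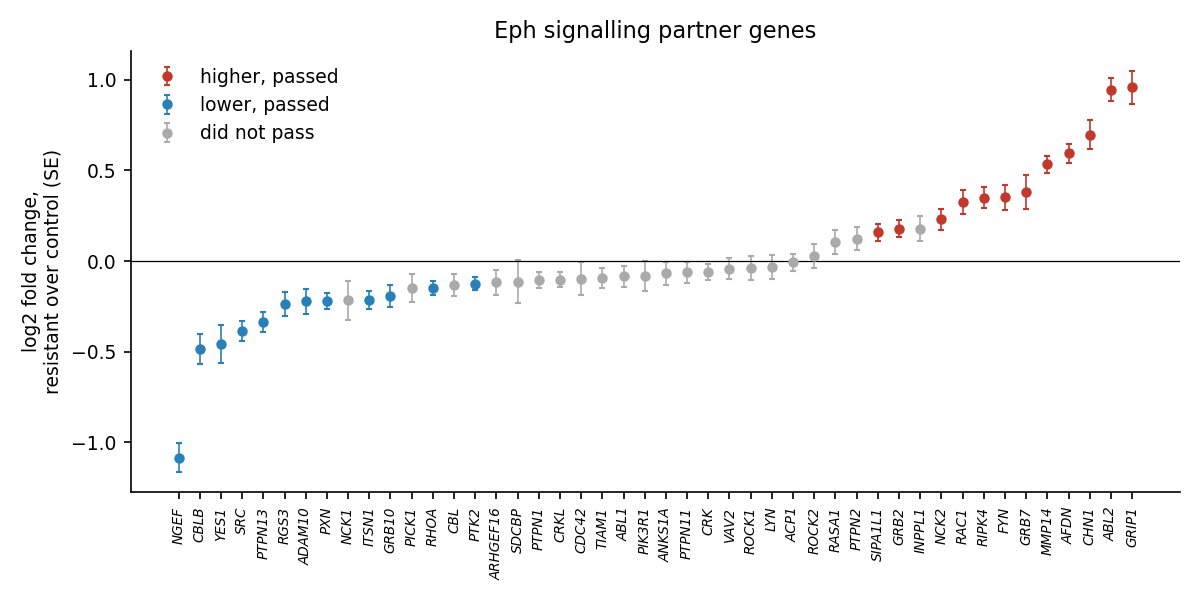
Log2 fold change of each of the 46 tested partner genes (vertical axis, resistant over control, bars for SE), ordered by value, red for the 12 that rose, blue for the 12 that fell and grey for the 22 that did not pass. NGEF at -1.09 lies apart at the low end, and ABL2 at 0.95 and GRIP1 at 0.96 at the high end.

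The nearest gene with at least 1 FPKM on either side of each Eph gene was also read. Of the 19 such genes that are not among the 10, 3 rose, 8 fell and 8 did not pass, where 24.5% of all tested genes rose and 25.7% fell. ZYX (zyxin, a focal adhesion protein) ends 2 bases inside the EPHA1 model on the opposite strand. It had 32.9 ± 0.694 FPKM in resistant and 62.2 ± 4.74 FPKM in control cells, a log2 fold change of -0.94 ± 0.06 beside -0.79 for EPHA1. Near their Eph genes too were SLC50A1, which starts 7.47 kb from EFNA1, and ADAM15 and EFNA3, which start 12.5 and 15.1 kb from EFNA4. SLC50A1 (-0.02) and EFNA3 (0.16) did not pass, while ADAM15 (-0.23) did. MIR4253 lies inside EPHB2. The neighbours named next lie much farther away. SSBP1, which starts 1115 kb from EPHB6, fell by 0.55 on the log2 scale, while GSTK1 on its other side was at 0.05 and did not pass. SLC4A3 and FARSB start 1790.5 and 1153 kb from EPHA4, and were at 0.87 and -0.46, both past the threshold. Beside EFNB1, STARD8 (181.3 kb) was at 1.18 ± 0.10, and at 0.58 on the log2(FPKM + 1) scale, and PJA1 (331.7 kb) at -0.39 ± 0.05, both past the threshold. The control mean of STARD8, 0.624 FPKM, is below the filter of 1 FPKM. STARD8, counted among the 3 that rose, was therefore read as a neighbour and tested only through its level in resistant cells (1.43 FPKM). POP7 near EPHB4 fell by 0.46, and ZBTB40 near EPHB2 rose by 0.47.

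The smaller differences among the neighbours depended on the setting. SLC12A9 near EPHB4 (-0.20) and ADAM15 near EFNA4 (-0.23) passed, but neither did when any single library other than control replicate 1 was left out, nor with limma-trend. FAM131C near EPHA2 (-0.40) passed, but not with DESeq2 (-0.40), nor without control replicate 1 (-0.30) or any single resistant library. POLR2H (-0.03) and MAGEF1 (-0.09), beside EPHB3, and SLC50A1 (-0.02), beside EFNA1, did not pass. They did with a GC correction, at -0.11 (POLR2H), -0.19 (MAGEF1) and -0.12 (SLC50A1). That correction shifted log2 fold changes by a median of -0.068 over genes, against the reported fit. ARHGEF19 near EPHA2 (0.21) passed only with library totals (0.23) and with limma-trend, and MIR4253, inside EPHB2 (-0.56), only without control replicate 1 (-0.79). MIR4253 covers 68 bases on the opposite strand, with 15 to 38 fragments per library. Whether fragments were counted by strand is not known, so these cannot be told apart from EPHB2 fragments. TCAF2 near EPHA1 and EFNA3 did not pass.

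For the 3 genes with the largest decreases, the genes with the closest profile over the 6 libraries were found by the distance of gene-centred log2 values among all 13070 tested genes. Closest to EPHB6 were SIPA1L2 (distance 0.114), AGR2 (0.151) and APCDD1L-AS1 (0.187). Closest to EPHB3 were COL1A1 (0.193), HIST1H4K (0.199) and HTRA1 (0.225), and closest to EFNB1 were MYBL2 (0.0699), TUBB3 (0.0839) and PRSS3 (0.0977). AGR2 had a log2 fold change of -1.21 beside -1.22 for EPHB6, and MYBL2 of -0.81 beside -0.83 for EFNB1. Such near-equal values follow from the choice by profile over the same 6 libraries, and nothing more is read from them.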

How the data were processed

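RNA was measured in 6 PC-3 libraries. The submitters' processing notes name TopHat2 2.0.6 and hg19. How fragments were assigned to genes, with which gene models and whether by strand, was not given in the sources used here. Per the file headers, the deposited value is a fragment count per gene, a whole number that was not normalized. The deposited FPKM equals that count divided by the listed mRNA length and by a total that is fixed within a library, and the deposited score (FPM) is the count scaled by the same total.

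The 849 rows with a repeated symbol were left out. Of the rest, 13070 genes that averaged at least 1 FPKM entered a quasi-likelihood fit in edgeR 4.0.16, with TMM scaling and group as the only term, on the counts, with Benjamini-Hochberg adjustment. Standard errors are the log2 fold change divided by the square root of the test's F. FPKM means carry the SD of 3 libraries. Members, gene lists and rules were chosen with earlier results of these data known. Named genes were the 10 members, the other family genes, the 4 largest rises and falls among partners that passed and reached 5 FPKM in the higher group, nearest expressed neighbours and closest profiles. FYN, LYN and GRIP1 were named after their values were seen. Alternatives were DESeq2 1.42.0, limma-trend (limma 3.58.1), other filters and normalizations, a GC correction from GENCODE 29 transcripts, a replicate block and each library left out. The test was checked on simulated data. Sequences are from RefSeq (GRCh38.p14), which had all 10 genes. Where a count is 0, the limit is 3 fragments per library and covers counting error only. Some markers that were read are not reported here.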

Additional observations from a re-analysis of the deposited data

How the results depend on the processing

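Over the alternatives, 8 of the 10 Eph genes kept their direction, and of these only EPHA2 lost its call, without resistant replicate 1 (log2 fold change 0.25). EPHB2, which did not pass, was at 0.0089 with library totals, at 0.0116, 0.0099 and 0.0083 with limma-trend at pseudocounts of 0.1, 0.5 and 1, and between -0.097 and 0.064 with 1 library left out. EFNA4, which did not pass, was at 0.0156 with library totals, at 0.0147, 0.0142 and 0.0136 with the same limma-trend settings, at 0.0256 among genes of at least 5 FPKM, and between -0.074 and 0.046 with 1 library left out. With that filter, 3 members were lower, since EPHB3 and EPHB6 fall below it. Of the other family genes, 1 was higher with DESeq2, with a GC correction, with library totals and with the replicate block (EFNA5 in each case), 0 to 1 with 1 library left out, and 2 were higher and 2 lower with no filter, which tests 12 of them in place of 4. The partners that fell numbered 23 with a GC correction, 7 among genes of at least 5 FPKM and 7 to 18 with 1 library left out. The summed ephrins differed by -30.6% in FPM, which is not divided by transcript length, and the summed receptors differed by -1.77% to 7.98% with 1 library left out. Among neighbours that did not pass, TCAF2 was at 0.0069 with library totals (-0.082 to 0.093 with 1 library left out), POLR2H at 0.0019 among genes of at least 5 FPKM (-0.073 to 0.0021), GSTK1 at -0.049 with a GC correction, and SLC50A1 at 0.0073 among genes of at least 5 FPKM (-0.080 to 0.017). Some settings moved genes in general. Against the reported fit, the median shift over genes was 0.022 with library totals and 0.021 with limma-trend. It was 0.032 among genes of at least 5 FPKM and -0.068 with a GC correction. The cause was not tested where none is given. Same-numbered libraries of the 2 groups did not deviate together (r = -0.0255, 0.0368 and -0.0882 for numbers 1 to 3). A replicate block gave 3059 higher and 3222 lower genes and 3 and 5 of the Eph genes. Depth limits what can be said of EPHA8, EFNA2 and EPHB1, with 0 to 30 fragments per library.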
